A study of Mus musculus with 2 samples.

Results

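CD8 negative T cells of gonadal white adipose tissue (gWAT) were taken from 2 single-cell RNA sequencing libraries by RNA gates, so the members were selected on the raw counts of the genes named next. A cell was a member when it held at least 2 unique molecular identifiers (UMIs, tags that mark single captured RNA molecules) of the CD3 genes Cd3d, Cd3e and Cd3g together, no UMI of Cd8a or Cd8b1, no Foxp3, at most 1 Ctla4 UMI, at most 1 UMI over the natural killer (NK) genes Klra1, Klra7, Klrb1c, Cd160 and Xcl1, no Cd79a, under 10 Dcn UMIs and at most 2 C1q UMIs. Of 4839 cells that passed the quality limits, 270 were members: 171 of 3881 in the littermate control library and 99 of 958 in the Adipo-Pgam1 KO library. The working name of these cells was conventional T cells, but 46 control and 16 KO members held at least 2 UMIs of the constant segment of the delta receptor chain (Trdc), and 29 and 16 held under 2 Trdc UMIs and no Trac or Cd4, so they are called here by their gates. The name CD8 negative T cells stands for these gates alone, and whether the last 29 and 16 cells are T cells was not tested.

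Both libraries came from the stromal vascular fraction (SVF) of gWAT of male C57BL/6 mice aged 13 weeks, which was freed with collagenase and Dispase. Adipo-Pgam1 KO mice carried floxed Pgam1 and Adipoq-Cre, which deletes the gene in adipocytes, and the littermate controls are labelled wildtype and given in the study's methods as floxed mice without Cre. There was 1 library per genotype, and the number of mice behind each was not given in the sources used here. Differences between the libraries therefore describe these 2 libraries, no p-value was computed, and every interval (95%) covers counting error only. Floating adipocytes are largely lost from the SVF and T cells do not use Adipoq, so Pgam1 RNA in these cells does not check the genotype.

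T cells recognise antigen through a receptor whose chains are held at the surface by the CD3 proteins. Most T cells of lymph nodes carry alpha and beta chains together with CD4 or CD8, whereas gamma delta T cells use another pair of chains and are known in fat for producing interleukin 17. T cells that recirculate use CCR7 to enter lymph nodes, and T cells that stay in tissue often carry CXCR6. Fat also holds lymphocytes with ST2, the receptor for interleukin 33 encoded by Il1rl1, among them group 2 innate lymphoid cells and some CD4 T cells.

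The control and KO libraries held 8522 and 2730 deposited barcodes and 42859406 and 13821581 UMIs, and 9 barcode sequences were found in both libraries, none of them a member in either. Over all barcodes Pgam1, the targeted glycolytic enzyme, had 4254 UMIs in the control, or 99.3 per 1000000 UMIs (CPM). The KO library had 1264 (91.5 CPM). Control members held 913002 UMIs and KO members 661966, with a median of 4694 UMIs (range 1310 to 27583) and 6689 UMIs (range 1402 to 24827) per cell, so KO members held more UMIs per cell, while over all barcodes the KO library had the lower median (2387 against 2957.5 UMIs). RNA of other cells was present in some members: 19 control and 9 KO cells held at least 5 UMIs of mural, endothelial, fibroblast or macrophage genes or at least 20 MHC class II UMIs. Summed fibroblast markers reached 375 CPM in the control and 147 CPM in the KO members and haemoglobin genes 11206 and 6257 CPM, the latter with up to 3970 UMIs in 1 cell, and the 5 B cell markers, of which Cd79a was fixed at 0 by the gates, reached 159.9 and 129.9 CPM.

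Members made up 4.41% (interval 3.78 to 5.10%) of the control and 10.3% (8.48 to 12.4%) of the KO cells. With a mitochondrial limit of 5% they were 29 of 1932 control (1.5%) and 31 of 470 KO cells (6.60%). Cells gated alike but with CD8 made up 1.55% and 2.71%, those with NK genes 3.84% and 6.89%, and those with Foxp3 or Ctla4 0.928% and 1.04%. Shares sum to the whole within a library, so a larger share of T cells and a smaller share of others cannot be told apart. At the edges of the gates, 19 control and 7 KO members had a CD3 sum of 2, and 48 and 15 cells stayed outside with a sum of 1. Of the members, 11 and 9 had 1 NK-gene UMI and 7 and 7 had 1 Ctla4 UMI, whereas 8 and 0 cells were outside by 2 NK-gene UMIs alone, 3 and 2 by 2 Ctla4 UMIs alone and 6 and 5 by 1 CD8 UMI alone.

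The 5 marker genes, of which Cd3d was part of the CD3 gate, were all present, at levels less than 2-fold apart between the libraries. Trac, Cd28 and Lef1 were found in 55.6%, 50.9% and 42.1% of control members, beside 78.3%, 75.0% and 65.0% of control CD8 T cells. In the KO library they were found in 68.7%, 62.6% and 47.5% of members, beside 80.8%, 76.9% and 61.5% of CD8 T cells. Cd4, the coreceptor for MHC class II, had 148 CPM in the control and 168 CPM in the KO members. Trac, the constant segment of the alpha chain, had 319.8 and 296 CPM. Cd28, the main costimulatory receptor, had 358 and 458 CPM, Lef1, a transcription factor of naive T cells, 195 and 264 CPM, and Cd3d 411 and 479 CPM. A Cd4 UMI was found in 68 of 171 control members (39.8%, 32.4 to 47.5%) and in 46 of 99 KO members (46.5%, 36.4 to 56.8%). With each cell thinned to 2000 UMIs, which left out 3 control and 4 KO members, the shares fell to 24.4% (18.1 to 31.6%) and 22.1% (14.2 to 31.8%), so the order of the libraries turned and the intervals overlapped. Among B cells, which lack Cd4, 0 of 173 control cells (upper bound 2.11%, median 4373 UMIs) and 0 of 50 KO cells (upper bound 7.11%, median 5472.5 UMIs) had a Cd4 UMI, and among CD8 T cells 2 of 60 and 5 of 26. A lack of Cd4 UMIs in a member does not show that the cell lacked CD4, since thinning alone removed a large share of the detections.

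Receptor genes split the members into 3 kinds, a division made after their values were seen and used only for description. Trac or Cd4 with under 2 Trdc UMIs was found in 96 control (56.1%, 48.4 to 63.7%) and 67 KO members (67.7%, 57.5 to 76.7%). At least 2 Trdc UMIs were found in 46 (26.9%, 20.4 to 34.2%) and 16 (16.2%, 9.53 to 24.9%). The others, 29 (17.0%, 11.7 to 23.4%) and 16 (16.2%, 9.53 to 24.9%), made up the third kind, in which 5 control cells held 1 Trdc UMI each. For each kind the intervals of both libraries overlapped. The cut on Trdc fell in a gap, since 45 of 46 control cells and 16 of 16 KO cells of that kind had over 2 UMIs, and only 6 control and 1 KO members had exactly 1.

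**Figure D1:**
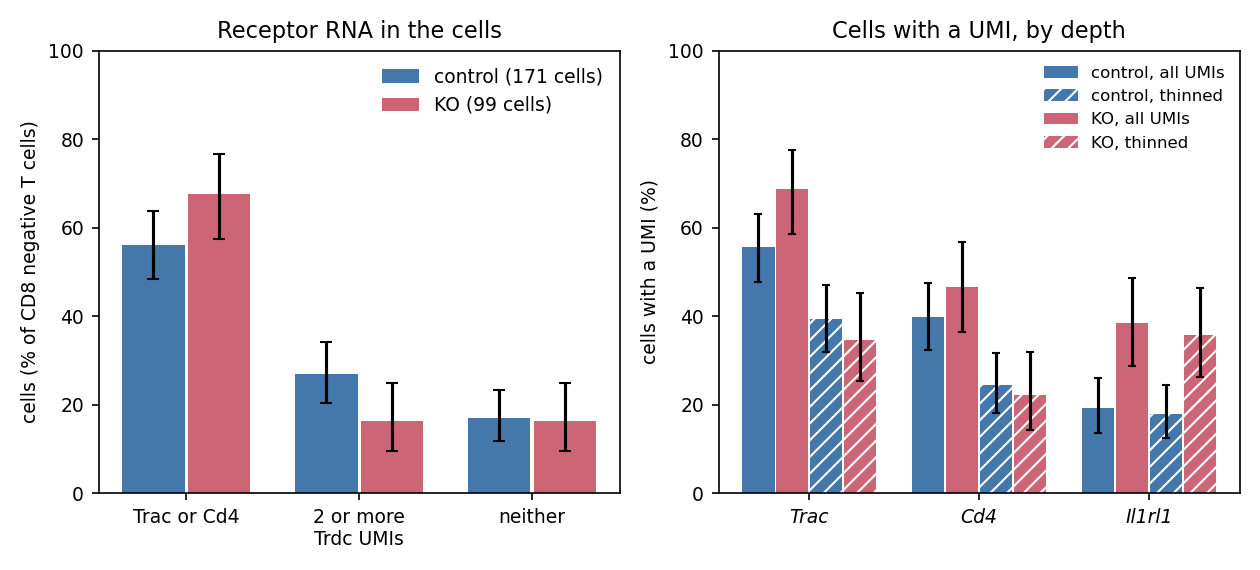
The left panel gives the share of CD8 negative T cells (%) in each of 3 kinds for the control (171 cells) and KO (99 cells) libraries, and the right panel the share of cells (%) with a UMI of Trac, Cd4 or Il1rl1, with all UMIs and after thinning to 2000 UMIs (hatched); error bars are 95% Clopper-Pearson intervals. Thinning lowers the shares with Trac and Cd4, whereas Il1rl1 stays at 17.9% of control and 35.8% of KO cells.

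Cells with Trac or Cd4 also carried other genes of alpha beta T cells. Trac and Cd4 defined the kind, so their levels follow from it: Trac reached 526 CPM in the control and 426 CPM in the KO cells and Cd4 259 and 247 CPM. Cd28 had 570.2 and 657 CPM. Lck, the kinase bound to CD4, had 338 and 322 CPM here against 31.5 and 0 CPM in the Trdc cells. Cd40lg, the helper ligand that activates B cells, had 80.6 and 122 CPM and was at 0 in the Trdc cells of both libraries. Variable segments of the alpha chain were found in these cells and in no other kind: 16 UMIs of 11 Trav genes in 14 control cells and 17 UMIs of 10 Trav genes in 10 KO cells. A 3′ library rarely reads these segments, so the other cells are not shown to lack them.

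Within this kind, genes for recirculation and for residence were mostly found in different cells. Ccr7 without Cxcr6 was detected in 38 control and 25 KO cells, Cxcr6 without Ccr7 in 31 and 30, both in 5 and 2, and neither in 22 and 10. Ccr7 had 259 and 298 CPM, and S1pr1, the receptor for leaving tissue, 361 and 351 CPM. Il1rl1 followed the Cxcr6 cells: of 13 control cells with Il1rl1, 12 also had Cxcr6 and 3 had Ccr7, and of 23 KO cells 20 had Cxcr6 and 1 had Ccr7. Cd4 was found in 11 of these 13 and 15 of these 23 cells.

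**Figure D2:**
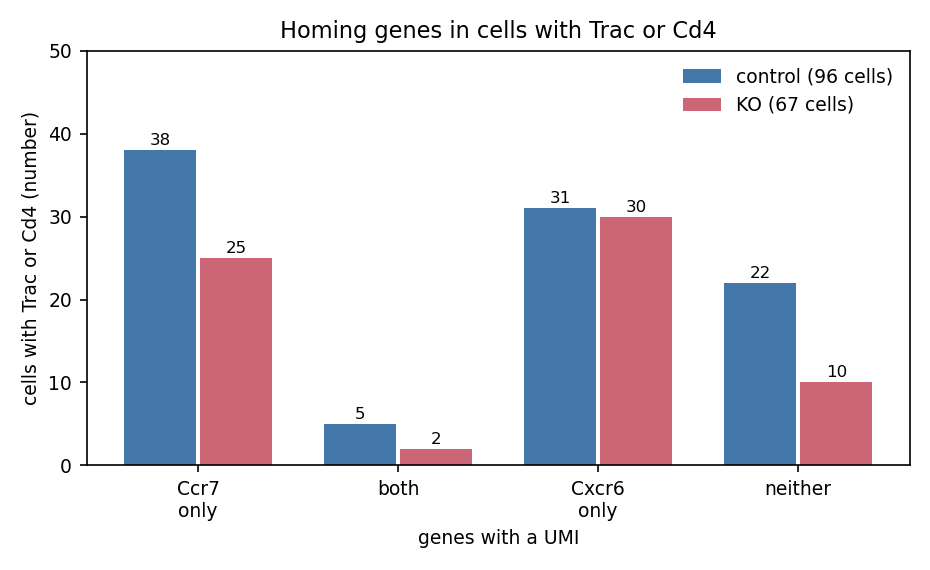
The vertical axis counts the cells with Trac or Cd4 in the control (96 cells) and KO (67 cells) libraries, by whether a UMI of Ccr7, of Cxcr6, of both or of neither was found. Cells with both were few, 5 from the control and 2 from the KO library.

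Cells with at least 2 Trdc UMIs, here called Trdc cells, also carried the other genes fixed as markers of gamma delta T cells, Cd163l1, Tcrg-C1, Tcrg-C2 and Tcrg-C4. Trdc, the gene that defined the kind, at chr14:54142851-54148868 of GRCm38 within the alpha chain locus and upstream of Trac (chr14:54220521-54224206), had 2119 CPM in the control and 2779 CPM in the KO cells of this kind. Cd163l1, a scavenger receptor found on gamma delta T cells, had 1253 and 1237 CPM and was detected in 41 of 46 control and 15 of 16 KO cells. The constant genes of the gamma chain followed, with Tcrg-C1 at 953 and 807 CPM, Tcrg-C2 at 260.0 and 466 CPM and Tcrg-C4 at 209 and 305 CPM. Tcrg-C1 and Tcrg-C2 are near-identical, so the division of reads between them is uncertain. No cell of this kind had a Cd4 UMI, and 13 control and 4 KO cells had Trac.

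The variable segments in these cells were few. Trdv4, a delta variable segment, was detected in 36 of 46 control cells (104 UMIs) and 15 of 16 KO cells (100 UMIs), and it was at 0 in cells with Trac or Cd4. Tcrg-V6, a gamma variable segment, had 14 UMIs in 11 control cells and 9 UMIs in 6 KO cells, all of this kind. Trgv2, another gamma variable segment, had 29 UMIs in 16 control cells and 29 in 8 KO cells of this kind. It was not confined to them, with 5 and 18 UMIs in cells with Trac or Cd4. The genes of interleukin 17 producing cells were present together: Il23r, the interleukin 23 receptor, had 106 and 89.6 CPM, Maf 1359 and 1461 CPM and Sox13, a transcription factor of gamma delta cells, 260.0 and 197 CPM. Il17a itself was low, at 9 UMIs in control and 4 in KO cells. Cxcr6 had 1225 and 1219 CPM and was found in 44 of 46 and 16 of 16 cells, above the 253 and 322 CPM of cells with Trac or Cd4.

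Cells of the third kind, with no Trac or Cd4 and under 2 Trdc UMIs, mostly held Il1rl1. Il1rl1 (chr1:40429570-40465415 of GRCm38) was found in 18 of 29 control cells (62.1%, 42.3 to 79.3%) and 15 of 16 KO cells (93.8%, 69.8 to 99.8%), at 1099 and 1618 CPM, and Gata3, the transcription factor of type 2 lymphocytes, had 803 and 1627 CPM. Arg1, an arginine-degrading enzyme, had 571 and 739 CPM, Rnf128, a ubiquitin ligase, 593 and 569 CPM, and Kit, the stem cell factor receptor, 116 and 279.6 CPM. Of the 6 genes listed as markers of group 2 innate lymphoid cells, Il1rl1 and Arg1 were clearly present, Areg had 0 and 4 UMIs, Hs3st1 0 and 7, Il5 2 and 0, and Il13 was at 0 in both libraries.

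CD3 RNA in these cells came largely from 1 gene. Cd3g (chr9:44969572-44980431) was the only CD3 gene with a UMI in 20 of 29 control and 13 of 16 KO cells, against 1 of 96 and 2 of 67 cells with Trac or Cd4 and 0 of 46 and 0 of 16 cells with Trdc. Its level was 528 and 619 CPM, beside 520.3 and 575 CPM in cells with Trac or Cd4, whereas Cd3e had 23 and 3 UMIs beside 169 and 148 UMIs. Cd3d was likewise lower, at 101 and 49.9 CPM beside 426 and 539.7 CPM, and Cd5, a T cell surface receptor, had 14.5 and 20.0 CPM beside 236 and 139.9 CPM. Trbc2, a beta chain constant segment, had 622 and 689 CPM (24 of 29 and 14 of 16 cells), and no Trav segment was found. The gate on summed CD3 UMIs was met through Cd3g alone in those 20 and 13 cells, and all 3 CD3 genes were found in 5 and 2 cells of this kind.

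**Figure D3:**
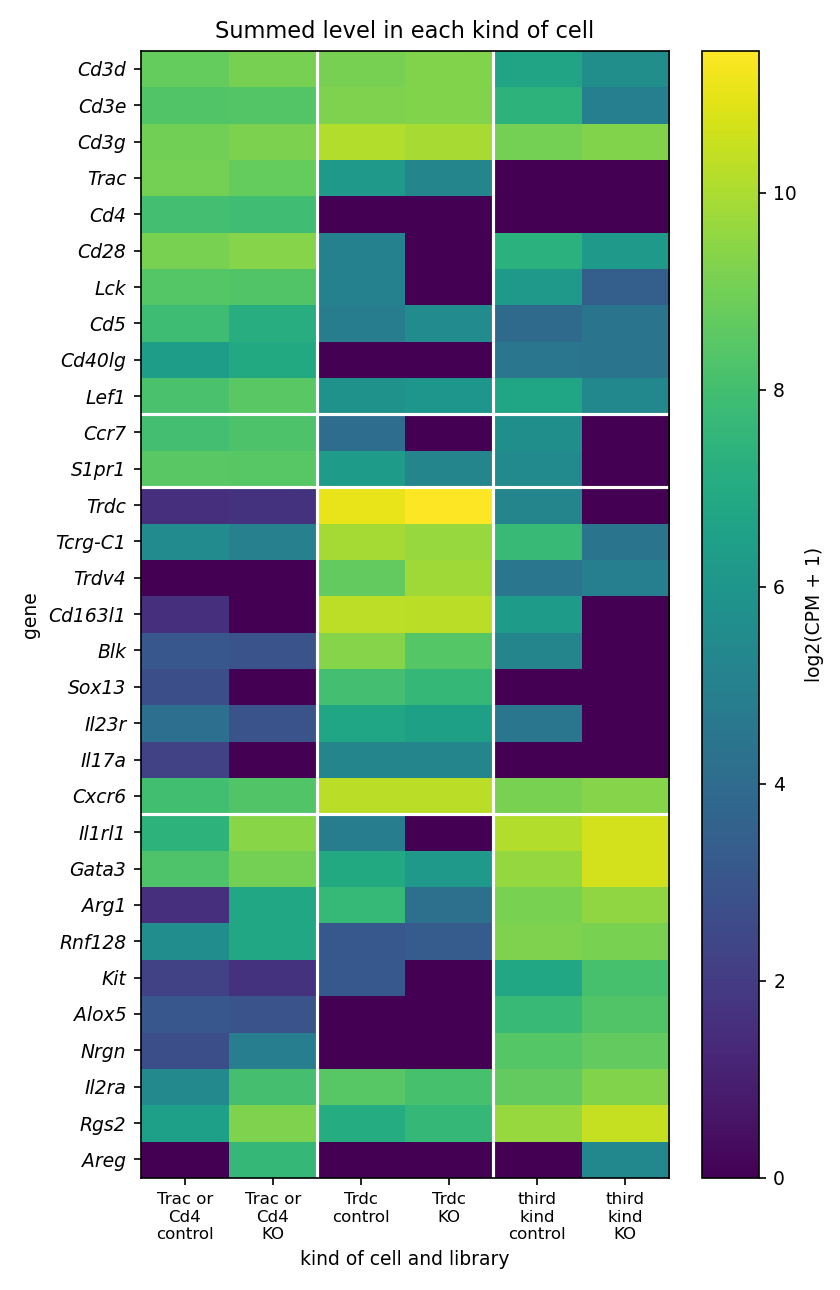
Each tile gives the summed level of a gene (rows) as log2(CPM + 1) in a kind of cell and library (columns), with no error shown. Trac, Cd4 and Cd28 are high in the first pair of columns, Trdc, Cd163l1 and Cxcr6 in the second pair, and Il1rl1, Gata3 and Rnf128 in the third pair. Trac, Cd4 and Trdc defined the kinds.

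Against all other kept cells of the same library, 1878 of 14481 genes (13.0%) were at least 2-fold higher in members in both libraries and 2078 (14.3%) lower, which describes the gates and is no test of them. The 20 highest genes came from both receptor kinds. Cd163l1 had log2 ratios of 7.75 and 6.71, Trdc 6.13 and 5.95, and Il23r 9.43 and 6.47, from the Trdc cells. Cd40lg had 5.50 and 4.80, Cd6 4.87 and 4.39 and Cd5 4.97 and 4.26, genes found mostly in cells with Trac or Cd4. Cd4 had 148 CPM in control members and 3.79 CPM in the other control cells, and 168 and 6.30 CPM in the KO library.

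Members were next set against CD8 T cells of the same library, to show which genes go with the missing coreceptor. Of 7158 genes with at least 30 UMIs over both classes and libraries, 243 (3.39%) were at least 2-fold higher in members in both libraries and 91 (1.27%) lower. Cytotoxic genes were lower: 6 of 6 measured genes of that list were at least 2-fold lower in both libraries, with median log2 ratios of -3.47 (control) and -2.90 (KO). Ccl5, a chemokine of cytotoxic cells, had log2 ratios of -3.74 and -3.35, Nkg7, a protein of cytotoxic granules, -3.21 and -3.05, and Klrd1, an NK receptor chain, -3.45 and -3.97. Ly6c2, a surface protein of memory CD8 cells, had -2.62 and -4.38.

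Genes of several lists were higher in members, among them lists of the minor kinds. The memory and effector list had 5 of 15 genes at least 2-fold higher in both libraries and 0 lower (medians 0.97 and 1.07). Of the gamma delta list, 7 of 9 measured genes were at least 2-fold higher in both libraries (medians 3.47 and 2.47), of the interleukin 17 list 5 of 7 (2.49 and 1.75) and of the regulatory T cell list 4 of 5 (2.02 and 2.50). Tmem176b, a membrane protein with 522 CPM in control and 485 CPM in KO members, had log2 ratios of 4.63 and 4.73. Il2ra, the interleukin 2 receptor alpha chain, had 4.71 and 4.15, Il1rl1 3.68 and 3.70, Capg, an actin-capping protein, 3.10 and 3.98, and Socs2, an inhibitor of cytokine signalling, 3.88 and 5.42. Il1rl1 and Il2ra were not confined to the minor kinds. Cells with Trac or Cd4 held 88 of 247 control and 308 of 470 KO UMIs of Il1rl1, and 21 of 168 and 122 of 214 of Il2ra. Of the 7 T cell receptor complex genes, 3 of which (Cd3d, Cd3e and Cd3g) gated both classes, 0 were past 2-fold in both libraries (medians -0.17 and -0.48). With the cells with Trac or Cd4 alone, 136 genes were higher and 51 lower, and Trdc had log2 ratios of -2.10 and -1.45, which follows from leaving the Trdc cells out.

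Members with a Cd4 UMI were set against members without in the same way. Of 6460 genes, 124 (1.92%) were at least 2-fold higher with Cd4 in both libraries and 223 (3.45%) lower. Ccr7, the lymph node homing receptor, had 303 CPM in control cells with Cd4 and 58.1 CPM without (log2 ratio 2.38, 1.80 to 3.00), and 407 and 8.83 CPM in the KO library (5.53, 3.95 to 7.82). Il6ra, the interleukin 6 receptor, had log2 ratios of 2.33 and 4.88, and Cd6, a T cell adhesion receptor, 3.02 and 2.32. The lowest were Trdc (-8.59 and -8.20), Tcrg-C1 (-5.69 and -6.64) and Tmem176a (-4.39 and -4.63), the genes of the Trdc cells. No Trdc cell had a Cd4 UMI, so these low values mark where those cells fell. The high values carry the same limit, since cells of the third kind also lay on the side without Cd4. Ccr7 was found in 3 of 46 control Trdc cells and 2 of 29 control cells of the third kind, and in 0 of 16 KO cells of each.

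KO members were then set against control members over 6460 genes. At least 2-fold higher in the KO library were 132 genes (2.04%) and at least 2-fold lower 353 (5.46%), with a median log2 ratio of -0.08, so 27.2% of the genes past 2-fold were higher. With TMM factors the median was 0.03 and that share 39.0%, and with median-of-ratios factors 0.04 and 39.9%. Without the members that carried RNA of other cells, 126 of 5758 genes (2.19%) were higher and 213 (3.70%) lower. Cells with Trac or Cd4 alone had 154 of 4737 genes higher (3.25%) and 240 lower (5.07%), or 133 of 3963 (3.36%) and 120 (3.03%) without RNA of other cells. Trdc cells had 47 of 1970 higher (2.39%) and 137 lower (6.95%), and cells of the third kind 56 of 1216 (4.61%) and 55 (4.52%). Among the 10 lowest were Tm4sf1, Postn, Gng11, Tinagl1, Mcam, Fbln5, Timp3, Fstl1 and Dlc1, most of them known from stromal or vascular cells. Of their control UMIs, 76.4% (Gng11) to 95.9% (Mcam) lay in members with RNA of other cell types. Without those members Postn had 4 control and 2 KO UMIs and Fbln5 2 and 2. Timp3 (36 and 5 UMIs) and Gng11 (13 and 2) stayed lower there. Pgam1 had 55 UMIs in control and 28 in KO members (log2 ratio -0.51, -1.22 to 0.17), an interval that held 0.

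Of the type 2 list 4 genes were measured, and Il1rl1 and Areg were past 2-fold higher (median 1.14, beside -0.08 for all genes, of which 2.04% were higher). Il1rl1 had 271 CPM in the control and 710 CPM in the KO members (247 and 470 UMIs; log2 ratio 1.39, 1.17 to 1.62). It was found in 33 of 171 control (19.3%, 13.7 to 26.0%) and 38 of 99 KO members (38.4%, 28.8 to 48.7%), and the shares stayed apart after thinning, at 17.9% (12.4 to 24.5%) and 35.8% (26.2 to 46.3%). B cells gave 4.62% and 10.0%, with 8.90 and 129 CPM (10 and 54 UMIs), and CD8 T cells 3.33% and 3.85%, with 21.1 and 54.6 CPM (6 and 9 UMIs). Among cells with Trac or Cd4 the log2 ratio was 2.02 (1.67 to 2.38), and among cells of the third kind 0.56 (0.23 to 0.89), while Trdc cells had 7 and 0 UMIs. The gate bears on this value: with a CD3 sum of 1 admitted, the shares were 27.9% (22.0 to 34.3%) in the control and 37.7% (28.8 to 47.3%) in the KO library, and their intervals overlapped.

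Gata3 had 304 UMIs in control and 407 in KO members (log2 ratio 0.88, 0.67 to 1.10), which is under 2-fold. Il2ra had 168 and 214 UMIs (0.81, 0.51 to 1.11), and 90 and 31 in Trdc cells (-0.35, -0.99 to 0.25). Among cells with Trac or Cd4 it had 21 UMIs in 11 control cells and 122 UMIs in 26 KO cells (2.75, 2.07 to 3.49). Rgs2, a regulator of G protein signalling, had 45 and 271 UMIs there (2.80, 2.34 to 3.29) and Rgs1 22 and 82 UMIs (2.11, 1.41 to 2.86). Rgs2 was also higher in KO CD8 T cells, with 7 and 29 UMIs (2.84, 1.62 to 4.27).

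None of 14 genes of the naive and central list was past 2-fold in either direction (median 0.19), nor was any of 7 receptor complex genes (median -0.08), 3 of which gated the members. Of 13 glycolysis genes none was past 2-fold (median 0.19), and Eno1, the enzyme after Pgam1 in the pathway, had 119 and 166 UMIs (0.94, 0.60 to 1.30). Of the interferon gamma (type 1) list 1 of 6 was lower and none higher (median -0.71), beside 5.46% lower and 2.04% higher over all genes. Tbx21, its transcription factor, had 33 UMIs in control and 11 in KO members (-1.12, -2.25 to -0.10), and Ifng 9 and 16 UMIs. Of the gamma delta list 3 of 9 were lower (median -0.34), beside the same 5.46% of all genes. Within the Trdc cells none of these 9 was lower and 2 were higher (median 0.39), beside 6.95% lower and 2.39% higher over all genes. The control had the larger share of Trdc cells.

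**Figure D4:**
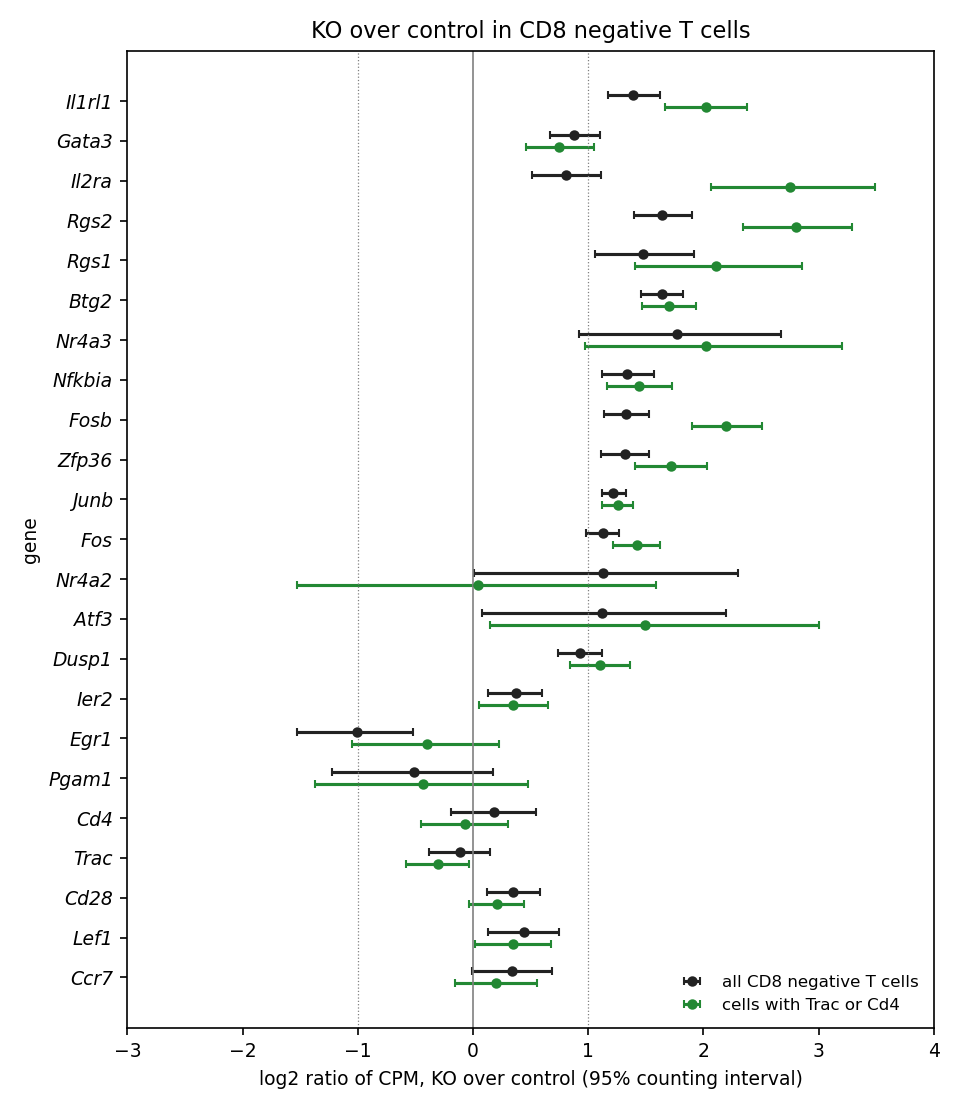
The horizontal axis gives the log2 ratio of CPM, KO over control, with 95% counting intervals, for all CD8 negative T cells (black) and for cells with Trac or Cd4 (green), and dotted lines mark 2-fold. Il1rl1, Il2ra and Rgs2 lie farther right in cells with Trac or Cd4, at 2.02, 2.75 and 2.80, and Cd4, Trac and Lef1 lie between the dotted lines.

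The 10 highest genes in KO members differed in how many cells carried them. Areg, the growth factor amphiregulin (chr5:91139599-91148432), had 91 UMIs in 8 KO cells and 0 in the control (log2 ratio at least 5.39 against a limit of 3 UMIs over the control members), and 42 of these UMIs were in 1 cell. Cxcl2, a neutrophil chemokine, had 14 UMIs in 4 control and 137 in 8 KO cells (3.75, 2.96 to 4.66), with 54 in 1 cell. Among B cells its 16 control UMIs lay in 1 cell and its 584 KO UMIs in 2 cells. T cells with NK genes went the other way, with 28 control UMIs in 3 cells and 0 KO UMIs. For kept cells without CD3 the log2 ratio of Cxcl2 was 1.87 (1.77 to 1.98). Aqp1 had 9 and 44 UMIs, of which 95.5% in the KO library lay in cells with RNA of other cell types, and without those cells it had 2 and 2.

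Furin, Neurl3 and Hilpda were spread over more cells. Furin, a protease that cleaves precursor proteins, had 92 UMIs in 62 of 171 control cells and 321 in 49 of 99 KO cells (2.27, 1.93 to 2.62), against a log2 ratio of 0.15 (-1.24 to 1.46) in CD8 T cells. Neurl3, a ubiquitin ligase, had 77 UMIs in 49 control and 274 in 46 KO cells (2.30, 1.93 to 2.68). Hilpda, a lipid droplet protein, had 33 UMIs in 27 control and 168 in 34 KO cells (2.81, 2.27 to 3.40). In cells with Trac or Cd4 the ratio was 2.47 (2.00 to 2.97) for Furin and 2.98 (2.10 to 3.99) for Hilpda, and in cells of the third kind 2.13 (1.51 to 2.80) and 3.27 (2.35 to 4.33). In Trdc cells both intervals held 0, with 0.94 (-0.12 to 1.98) and 1.03 (-0.44 to 2.49). Neurl3 had 2.09 (1.63 to 2.57) in cells with Trac or Cd4, 2.26 (1.59 to 2.98) in the third kind and 2.41 (0.28 to 4.99) in Trdc cells, from 3 and 7 UMIs. Outside the members Hilpda was also higher in B cells (2.91, 1.36 to 4.74) and in kept cells without CD3 (1.19, 0.99 to 1.38), and Neurl3 had 0.79 (0.01 to 1.57) in CD8 T cells. The other genes of the 10 were Gm20186 (33 and 267 UMIs; 3.48, 2.96 to 4.05), Gm12840, Gm26870 and Gm10020, gene models with no known role, of which some may share reads with near-identical copies. Outside the members, the log2 ratio of Gm20186 was 2.69 in CD8 T cells, 0.69 in B cells and 1.46 in kept cells without CD3. In the same order Gm12840 had 1.19, 1.75 and 1.18, Gm10020 2.49, 2.09 and 1.42, and Gm26870 -0.21, -1.03 and 0.47.

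Immediate early genes are switched on within minutes of a stimulus and also during tissue digestion. Of 18 measured, 9 were at least 2-fold higher in KO members (2.04% of all genes) and 1, Egr1, was lower (5.46% of all genes), with a median log2 ratio of 1.02. Dusp2 (-0.56) was also below 0, as was Jun (-0.23), which had 0.32 in members without RNA of other cell types. Btg2, an inhibitor of proliferation, had 361 UMIs in 120 of 171 control cells and 814 in 90 of 99 KO cells (1.64, 1.46 to 1.82). Junb, a subunit of the AP-1 factor, had 1131 and 1915 UMIs (1.22, 1.12 to 1.33), and Fos, its partner, 628 and 995 (1.13, 0.98 to 1.27). Nfkbia, the inhibitor of NF-kB, had 252 and 464 UMIs (1.34, 1.12 to 1.57). Tnfaip3, another inhibitor of that pathway and outside the list, had 180 and 442 UMIs (1.76, 1.51 to 2.02). Egr1 had 128 and 46 UMIs (-1.01, -1.53 to -0.52), but in cells with Trac or Cd4 and no RNA of other cells 9 and 30 UMIs, a log2 ratio of 1.90 (0.79 to 3.16).

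The ratios differed between kinds of cells. Cells with Trac or Cd4 had 8 of 16 genes past 2-fold higher and none lower (median 0.92), and cells of the third kind 3 of 13 and none (0.88). Over all genes, 3.25% were higher and 5.07% lower in cells with Trac or Cd4. In the third kind these shares were 4.61% and 4.52%, and in Trdc cells 2.39% and 6.95%. In Trdc cells none of 14 was higher and 4 were lower (median -0.52), with Fos at 84 UMIs in control and 11 in KO cells (-1.75, -2.80 to -0.83) and Zfp36, which destabilises cytokine RNA, at 64 and 11 (-1.35, -2.43 to -0.42). CD8 T cells had 4 of 12 higher (median 0.56), NK-gene T cells 2 of 17 higher and 1 lower (0.23), B cells 7 of 18 higher (0.81) and kept cells without CD3 1 of 20 (0.56). For these cells outside the members no share over all genes was computed, so their counts have no baseline. Among members with a Cd4 UMI alone the median was 0.46, and with a CD3 sum of 1 admitted it was 0.56.

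**Figure D5:**
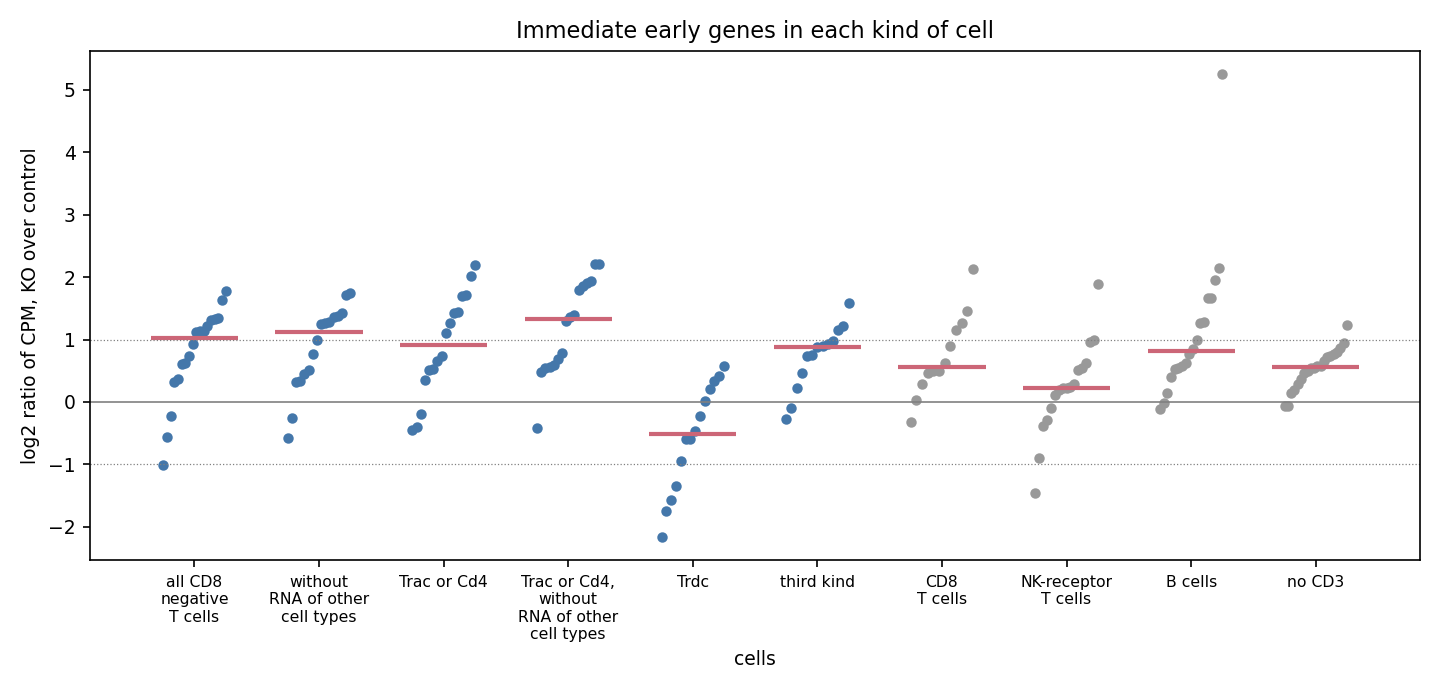
Each point is an immediate early gene, with its log2 ratio of CPM, KO over control, on the vertical axis and the cells it was measured in on the horizontal axis; red bars are medians, blue points members and grey points other cells, and dotted lines mark 2-fold. The median is 1.02 in all CD8 negative T cells and 0.92 in cells with Trac or Cd4, and -0.52 in Trdc cells.

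Promoters of the genes that moved were read from RefSeq (GRCm38.p6) and searched on both strands for the NF-kB motif (GGGA, any base, TTTCC) and the cyclic AMP response element TGACGTCA, which do not overlap, in the 250 bases before the start. Of 32851 promoters, 117 (0.356%) held the first and 508 (1.55%) the second. Among the 20 highest genes in KO members without RNA of other cells, 14 matched with 17 promoters, of which 3 held the first motif (Neurl3, Cxcl2 and Csf1) and 1 the second (Areg). Among the 20 lowest, 15 matched with 18 promoters, of which 1 held the first (Map3k7) and 0 the second. Of 20 immediate early genes 17 matched with 21 promoters, and Nfkbia held the first and Btg2 and Dusp1 the second. The sequences of 4 genes described above are shown 5′ to 3′ on the strand of the gene, with the match in capitals: Neurl3 at chr1:36273426-36273675 (minus strand, match 110 bases before the start), Cxcl2 at chr5:90903649-90903898 (plus strand, 97 bases), Nfkbia at chr12:55492648-55492897 (minus strand, 29 bases) and Areg at chr5:91139349-91139598 (plus strand, 61 bases).
Neurl3: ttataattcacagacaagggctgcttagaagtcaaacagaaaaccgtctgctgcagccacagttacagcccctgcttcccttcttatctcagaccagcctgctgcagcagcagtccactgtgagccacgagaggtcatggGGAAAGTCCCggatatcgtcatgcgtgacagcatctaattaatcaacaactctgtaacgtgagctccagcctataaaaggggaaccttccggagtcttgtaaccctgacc
Cxcl2: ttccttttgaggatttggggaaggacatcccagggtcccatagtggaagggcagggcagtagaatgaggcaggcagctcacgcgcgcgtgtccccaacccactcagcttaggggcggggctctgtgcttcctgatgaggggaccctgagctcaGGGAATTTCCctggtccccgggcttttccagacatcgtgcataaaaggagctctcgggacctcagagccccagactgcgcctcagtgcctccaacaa
Nfkbia: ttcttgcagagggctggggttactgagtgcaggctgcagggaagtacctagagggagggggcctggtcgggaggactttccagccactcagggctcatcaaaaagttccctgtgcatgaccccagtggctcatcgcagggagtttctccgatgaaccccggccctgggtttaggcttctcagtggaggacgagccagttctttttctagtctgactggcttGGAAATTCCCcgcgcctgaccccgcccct
Areg: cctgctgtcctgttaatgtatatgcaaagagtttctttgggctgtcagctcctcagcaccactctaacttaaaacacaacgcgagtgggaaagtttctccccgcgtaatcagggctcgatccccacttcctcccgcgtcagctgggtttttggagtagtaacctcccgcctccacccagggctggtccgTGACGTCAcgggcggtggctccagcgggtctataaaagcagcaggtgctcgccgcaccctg
Neurl3 and Nfkbia hold the motif as its reverse complement, and Areg alone of the 4 holds the cyclic AMP element. A match shows that these letters stand in the window and says nothing on binding.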

How the data were processed

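SVF cells of gWAT were profiled with 10x 3′ chemistry in 1 littermate control and 1 Adipo-Pgam1 KO library. The authors deposited whole UMI counts per gene and barcode, without normalization, made with Cell Ranger 3.0.1 on mm10. The submitters' processing notes also name Seurat 3.1.5 and R 4.0.1. Barcodes with under 500 detected genes or with over 10% of UMIs from mitochondrial genes were dropped, and the gates given above were applied to raw counts. The members, the 42 gene lists and the named genes were chosen with earlier results of these data known, and the 3 kinds and the cells with RNA of other cell types were defined after the values were seen.

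Counts were summed over cells and divided by their total (CPM, per 1000000 UMIs), with exact Poisson, Clopper-Pearson and conditional binomial intervals at 95%. Genes needed at least 30 UMIs over both libraries. Counts under 3 were set to 3 in rankings, medians and 2-fold counts, and a log2 ratio against 0 was taken against 3 UMIs. Named genes were the markers, list members, the 10 highest and lowest KO over control found in at least 5 cells of the higher library, and the extremes against CD8 T cells (12), against members without Cd4 (10) and against all other cells (20), where the smaller ratio of both libraries ranked. Some named genes are not reported here. Scrublet in scanpy 1.11.5 (0.8% of barcodes per 1000) and edgeR 4.0.16 (TMM factors, R 4.3.3) served alternatives only, and doublets were otherwise kept. The steps were tested on simulated counts. Gene coordinates came from GENCODE M21 (GRCm38), which held 28339 of 28692 gene IDs. Scripts ran in Python 3.11.15 with pandas 2.3.3, scipy 1.17.1, numpy 2.4.6 and matplotlib 3.10.9.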

Additional observations from a re-analysis of the deposited data

How the results depend on the processing

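No paired analysis was possible because there was 1 library per genotype. With a mitochondrial limit of 5%, members made up 1.5% of control and 6.60% of KO cells, Il1rl1 was found in 58.1% of KO members, 130 genes were at least 2-fold lower in KO members, and 72 were higher than in CD8 T cells. With a CD3 sum of at least 1, the control values were 5.64% for the share of members, 32.0% for Cd4 and 27.9% for Il1rl1. Cells thinned to 2000 UMIs gave Cd4 shares of 24.4% and 22.1%, 79 genes higher and 113 lower in KO members, and 74 higher and 43 lower than in CD8 T cells. A count minimum of 20 gave 606 genes lower in KO members and 163 lower than in CD8 T cells, and a minimum of 50 gave 85 higher and 149 lower, and 53 lower than in CD8 T cells. Genes lower in KO members numbered 213 without RNA of other cell types, 235 without cells with a Trdc or Tcrg UMI, 201 with Cd4 cells alone, and 120 with cells with Trac or Cd4 without RNA of other cell types. Cells with Trac or Cd4 alone gave 136 higher and 51 lower than in CD8 T cells. The cause of these shifts was not tested. Some alternatives left fewer cells or genes, whereas a CD3 sum of at least 1 admitted more cells and a count minimum of 20 more genes.

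The sign of the KO over control ratio turned for Atf3 with the mitochondrial limit of 5% (log2 ratio -0.50), Aqp1 with the highest doublet scores removed (-1.17), Nr4a2 with Cd4 cells alone (-0.35) and Egr1 with cells with Trac or Cd4 without RNA of other cell types (1.90). Against CD8 T cells it turned for Trdc (-2.10 and -1.45) and Cd163l1 (-0.87 and -1.45) with cells with Trac or Cd4 alone, by construction. Named ratios, KO over control, stayed within the interval of the main setting in 829 of 974 cases. List medians, which have no interval, stayed within a fixed log2 margin in 130 of 140.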

Other observations

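Interferon genes differed in the Trdc cells. Of 7 measured genes of that list, 5 were at least 2-fold higher in the KO cells of this kind and none lower, beside 2.39% and 6.95% of all genes, with a median log2 ratio of 1.35 beside -0.04. These values rested on 1 KO cell: it held 23 of 33 UMIs of Ifi47, 26 of 31 of Igtp and 30 of 39 of Gbp2, all interferon-induced GTPases. Over all members 2 of 12 genes of the list were higher and 1 lower, with a median of 0.36.

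Over all genes 2.04% were past 2-fold higher and 5.46% lower in KO members. Heat shock genes had 1 of 8 past 2-fold higher in KO members (median 0.55), namely Hsph1, a chaperone of the Hsp110 family, with 21 and 51 UMIs (log2 ratio 1.74, 0.98 to 2.55). Of 11 clock genes 1 was higher and 3 lower (median -0.43). Per1, a repressor of the clock, had 36 and 57 UMIs (1.13, 0.50 to 1.77) and Dbp, a transcription factor that follows the clock, 47 and 18 (-0.92, -1.79 to -0.11). Of 9 cell cycle genes 2 were lower (median -0.31), and Mki67, a marker of dividing cells, had 20 UMIs in control and 6 in KO members. Ribosomal protein genes (79 measured, median 0.08) and respiratory chain genes (82 measured, median -0.04) had 1 gene and 0 genes past 2-fold. Maf had 197 UMIs in control and 91 in KO cells with Trac or Cd4 (-0.90, -1.28 to -0.54), and in Trdc cells 345 and 163 (0.10, -0.17 to 0.38).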
